A study of Mus musculus with 40 samples.

Results

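YUMM1.7 and YUMM2.1 are cultured mouse melanoma lines derived from tumours with BrafV600E. Their RNA was compared here in cells that carried an empty vector (EV). The comparison took 2 YUMM1.7 EV libraries and 2 YUMM2.1 EV libraries out of the 40 libraries of the series, chosen by line and construct from the labels. The study gives the source tumours as BrafV600E and Cdkn2a-/- for YUMM1.7, and as BrafV600E, Cdkn2a+/- and Bcat STA/+ for YUMM2.1. Bcat STA/+ is a heterozygous stabilised β-catenin allele. EV is a lentivirus with GFP but no Bmal1 insert. In part of its methods the study makes YUMM2.1 EV from cells that already held a Bmal1 luciferase reporter, selected with blasticidin. No reporter step is described for YUMM1.7, and the labels do not name it for either line. Sorting for GFP is described for YUMM2.1 and not for YUMM1.7. No treatment or time point separates the 2 groups in the labels, and each group is 1 cell line, so line, genotype and passage history cannot be told apart. The same line contrast was also taken in cells with wild-type Bmal1 (WT-Bmal1) and in cells with dHLH-Bmal1, a mutant that the study describes as transcriptionally inactive, again with 2 libraries per line. In the study YUMM1.7 served as an immune-resistant line in which levels of the MRTF-SRF pathway were set beside those of YUMM2.1 derivatives.

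Melanocytes arise from the neural crest, and melanoma cells move between states that recall this origin. Sox10 is the transcription factor that keeps neural crest, melanocyte and Schwann cell identity. Sox10 and Mitf together drive the pigment genes. Cells that lose Sox10 and gain Sox9, Axl and matrix genes are called undifferentiated or mesenchymal. SRF is a transcription factor of actin and contractile genes whose coactivators, Mrtfa and Mrtfb, are held in the cytoplasm by free actin. β-Catenin is the effector of canonical Wnt signalling, and it switches on feedback genes such as Axin2, Nkd2 and Lgr6.

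The 3′ tag libraries held between 9097676 and 11356803 estimated counts. The 2 YUMM1.7 EV libraries correlated at r = 0.994 over 8896 well-measured genes, with an SD of 0.18 for the log2 differences between them, and the 2 YUMM2.1 EV libraries at r = 0.965, with an SD of 0.44. YUMM2.1 EV replicate 1 was closer to the library labelled YUMM2.1 WT-Bmal1 replicate 1 (r = 0.992) than to its own replicate, and YUMM2.1 EV replicate 2 was closer to YUMM2.1 WT-Bmal1 replicate 2 (r = 0.990). In a normalised table that the study supplies, the values of YUMM2.1 EV replicate 2 and YUMM2.1 WT-Bmal1 replicate 1 stand under each other's names. The EV comparison was therefore repeated with YUMM2.1 WT-Bmal1 replicate 1 in place of YUMM2.1 EV replicate 2, called the exchanged library below. The study calls the 2 libraries of a group biological replicates. Neither it nor the labels say whether they were separate cultures, so p-values measure only the spread between these libraries, which may be technical.

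A total of 14086 genes were tested with edgeR, and 4267 differed at an adjusted p under 0.05, which is 30.3% of those tested. Of these, 1987 were higher in YUMM1.7 (14.1%) and 2280 were lower (16.2%). The median log2 fold change over all tested genes, YUMM1.7 over YUMM2.1, was 0.00. A change of at least 1 on the log2 scale was found in 2602 of the called genes, 8.34% of those tested in the higher direction and 10.1% in the lower, and a change of at least 5 in 594. With the exchanged library 7421 genes were called (52.4%), 26.2% of those tested in each direction. Counts of called list members below, as labelled or with the exchanged library, stand against the matching shares. The CPM of the groups did not overlap for 68.5% of the genes tested with the libraries as labelled. Among the 4267 genes, 4219 were called in the same direction with the exchanged library and 0 had the opposite sign. The 2 fits share all libraries but 1 of YUMM2.1, so their agreement is not independent support. Levels are given below as CPM, counts per 1000000 counts of the library after TMM scaling. Their order is YUMM1.7 EV replicates 1 and 2, then YUMM2.1 EV replicates 1 and 2. SE is the size of the log2 fold change over the square root of the F statistic of its test. It approximates a standard error, and for genes at a few counts in a line it does not measure counting error.

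**Figure D1:**
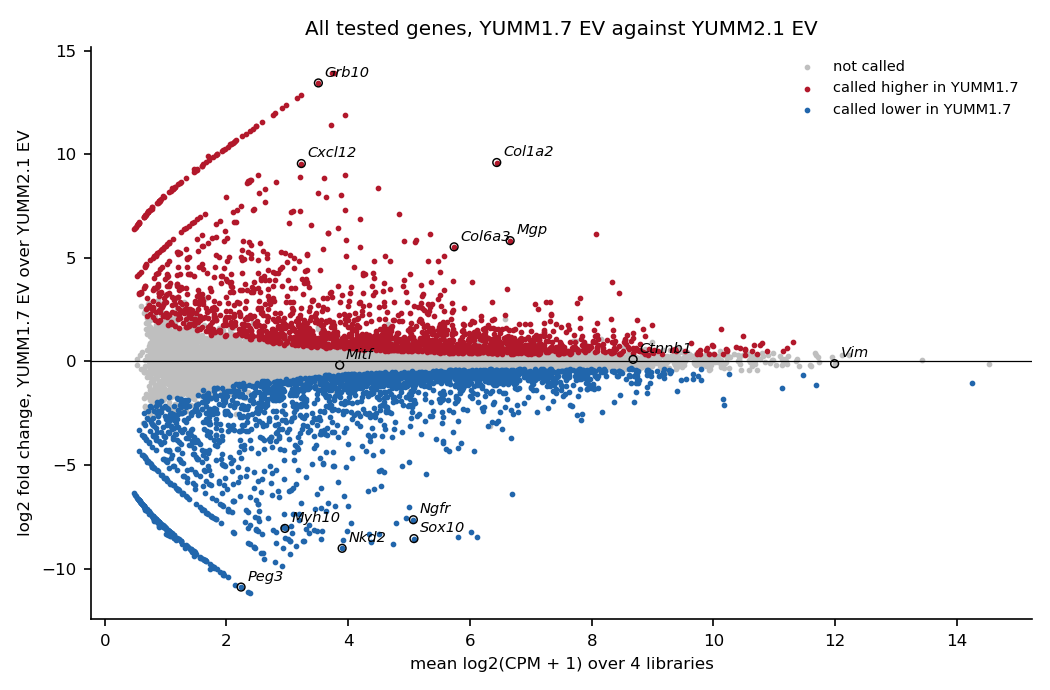
Each point is 1 of the 14086 tested genes, with the mean log2(CPM + 1) over the 4 libraries on the x axis and the log2 fold change of YUMM1.7 EV over YUMM2.1 EV on the y axis. Red and blue points are the 1987 higher and 2280 lower genes at an adjusted p under 0.05, and the curved lines of points at the upper and lower left are genes with no or very few counts in one line, whose fitted change depends on the prior count.

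Among the protein-coding genes with the largest fitted changes, most were at or near 0 counts in one line. Mtap, the enzyme of methionine salvage, was at 179 and 183 CPM in YUMM1.7 and at 0 counts in both YUMM2.1 libraries, at least 1288-fold higher (a floor of 3 counts over the 2 YUMM2.1 libraries). Plpp3, a lipid phosphatase, was at least 1272-fold higher, Grb10, an imprinted adaptor that restrains insulin receptor signalling, at least 919.7-fold higher, and Cgnl1, a junction protein, at least 618-fold higher. Efemp1, a fibulin of the extracellular matrix, was at least 438-fold higher, and Klhl9, Zcchc3 and Arsj at least 335-fold, 247-fold and 215-fold higher. Amigo2, an adhesion protein, and Ssbp3 had 1 count in all in YUMM2.1 EV, and their ratios were 4871 (95% counting interval 874 to 192431) and 3428 (615 to 135424).

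The 10 protein-coding genes with the largest fitted decreases had 0 counts in both YUMM1.7 libraries. Peg3, an imprinted zinc finger gene, was at 25.8 and 17.7 CPM in YUMM2.1 and at least 163-fold lower in YUMM1.7. Ptprz1, a receptor phosphatase of glial cells, was at least 153-fold lower, Plxnb3, a semaphorin receptor, at least 109-fold, and the non-muscle myosin heavy chain Myh14 at least 100.4-fold. Vstm2a, Atp8a1, Fbln2, Kcnj12 and Atp1b2 were lower by at least 86-fold to at least 113-fold. Gm10778, a predicted zinc finger gene whose reads may be shared with near copies, was at least 189-fold lower here, but with WT-Bmal1 its adjusted p was 0.56.

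The loci named in the genotypes were read first in every library. Cdkn2a, which encodes the cell cycle inhibitors p16 and p19Arf, had 5 and 7 counts in the YUMM1.7 EV libraries and 0 counts in both YUMM2.1 EV libraries, at least 3.89-fold higher in YUMM1.7, and it was too low to be tested. In all 30 YUMM2.1 and aC3 libraries (aC3 is a Bmal1-null clone of YUMM2.1) its count was 0. This order is the reverse of that of the genotypes, but the study gives those for the tumours that the lines came from. Cdkn2b, its neighbour, had 0 counts in all 4 libraries. Braf was at 36 and 34.4 CPM against 52.3 and 53.8 CPM (log2 fold change -0.62, SE 0.12, adjusted p = 0.013). Tags from the 3′ end can still be counted from an allele that lost other exons, and the sources used here do not say which exons were lost, so these counts do not check the Cdkn2a alleles.

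Mtap was not alone. Genes with at most 3 counts in each of the 6 YUMM2.1 libraries (EV, WT-Bmal1 and dHLH-Bmal1) and at least 50 in each of the 6 YUMM1.7 libraries numbered 34, and 10 of them lay on chromosome 4. The longest runs of such genes among expressed neighbours held 3 genes each, Focad, Hacd4 and Klhl9 in one and Mtap, Gm12606 and Dmrta1 in the other. Both lie in an interval from the start of Focad to the end of Dmrta1 (mm10, chr4:88094629-89694772, 1.6 Mb), which also holds Cdkn2a and Cdkn2b. The interval was drawn after these values were seen.

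Of the 68 genes listed in this interval, 12 reached 10 counts in a YUMM1.7 library. Their summed counts, over all 68 genes, were 24817 in the 6 YUMM1.7 libraries, 10 in the 6 YUMM2.1 libraries and 35 in the 30 YUMM2.1 and aC3 libraries. No gene of the interval exceeded 5 counts in any of those 30 libraries, and 60 of the 68 had none. On its left, Mllt3, a chromatin reader, had 735 to 847 counts in YUMM1.7 and 0 to 14 in YUMM2.1, while Rps6, a ribosomal protein gene 1.24 Mb away, had 14388 to 19118 and 9357 to 17092. On its right, Caap1, 4.81 Mb away, was measured in both lines at 116 to 160 and 86 to 122 counts. Tusc1, between Dmrta1 and Caap1, went the other way, with 0 counts in every YUMM1.7 library and 36 to 70 in YUMM2.1. Focad and Hacd4 overlap each other, and the strand used in counting is not given in the sources used here, so reads of overlapping genes cannot be told apart. Whether DNA was lost in the interval was not tested.

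**Figure D2:**
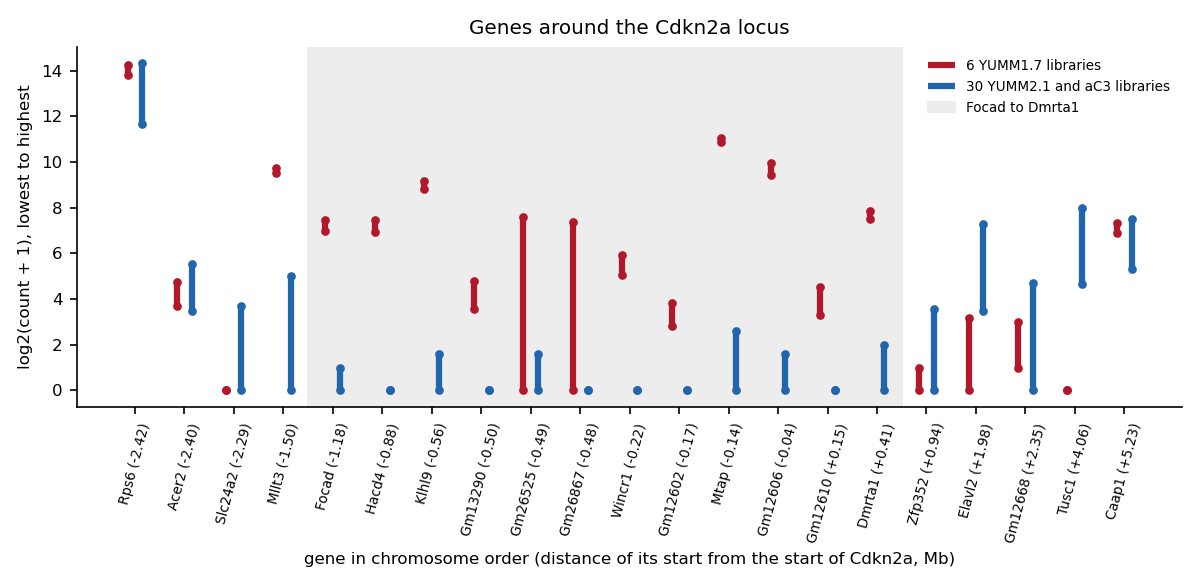
Lowest to highest log2(count + 1) of genes around Cdkn2a on chromosome 4, in the 6 YUMM1.7 libraries (red) and the 30 YUMM2.1 and aC3 libraries (blue), in chromosome order with the distance from the start of Cdkn2a in Mb. Inside the shaded interval no blue bar passes 5 counts, while Rps6 and Caap1 outside it are measured in both lines.

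The labelled cell type was checked against melanocyte markers. Mitf, the master regulator of melanocytes, was at 12.6 and 13.1 CPM in YUMM1.7 and at 14.4 and 14.2 CPM in YUMM2.1, with a log2 fold change of -0.18 (SE 0.18, adjusted p = 0.48). The pigment genes Tyr, Dct, Tyrp1 and Mlana were at 0 or 1 count in each of the 4 libraries, and Pmel had at most 5. Of the 22 melanocytic genes, 12 never passed 3 counts, and of the 7 tested 1 was higher and 3 were lower, with a median log2 fold change of -1.20. Gpnmb, a melanosome and lysosome glycoprotein, was the higher gene, at 141 and 135 against 81.2 and 90.1 CPM (0.67, SE 0.11, adjusted p = 0.0067). Mlph and Rab38, which act in melanosome transport, were lower (-1.96 and -4.32, adjusted p = 0.0032 and 0.011). At this depth pigment transcripts were thus not detectable beyond a few counts in either line.

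Sox10 was at 1.52 and 1.12 CPM in the YUMM1.7 libraries and at 501 and 484 CPM in the YUMM2.1 libraries. The groups lay far apart, with a log2 fold change of -8.55 (SE 0.18, adjusted p = 1.0e-05), or 375-fold lower in YUMM1.7. The highest of the 6 YUMM1.7 libraries was at 1.52 CPM and the lowest of the 30 YUMM2.1 and aC3 libraries at 12.3 CPM. In bulk RNA fewer cells that express a gene and less RNA per cell cannot be told apart. Ngfr, the neurotrophin receptor that marks neural crest-like melanoma, showed a difference of like size, at 2.5 and 1.4 CPM against 388 and 384 CPM (-7.64, SE 0.23, adjusted p = 1.7e-05).

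Sox9, which is often reciprocal to Sox10, was at 212 and 221 CPM in YUMM1.7. Its YUMM2.1 replicates differed from each other, at 18.4 and 87.3 CPM, both below YUMM1.7. The log2 fold change was 2.03 (SE 0.62, adjusted p = 0.051), and it was 3.48 (adjusted p = 4.0e-12) with the exchanged library, in which Sox9 was at 19.7 CPM. The Sox9 call thus turned on which library stood as the YUMM2.1 replicate 2, and the Sox10 call did not.

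The neural crest and glial list followed Sox10 in part. Of its 25 genes 22 were tested, and 5 were higher and 14 lower in YUMM1.7, with a median log2 fold change of -1.31, beside 0.00 for all genes. The 14 and 5 genes stand against shares of 16.2% and 14.1% over all genes. Lower genes of Schwann cells and their precursors were S100b, a calcium-binding protein, at 0.713 and 0.749 against 217 and 257 CPM (-8.34, SE 0.20), and Erbb3, the neuregulin receptor, at 0.357 and 0.375 against 138 and 76.5 CPM (-8.18, SE 0.47). Cdh19, a cadherin of Schwann cell precursors, had 3 counts in YUMM1.7 EV in all and was at 88.9 and 53 CPM in YUMM2.1 (ratio 535, counting interval 183 to 2597). Foxd3, a pioneer factor of the crest, had 1 count in each YUMM1.7 library and was at 39.8 and 12.9 CPM in YUMM2.1 (ratio 308, interval 84.8 to 2547). Sox6 (-8.20), the GDNF receptor Gfra2 (-5.57), L1cam (-3.28) and Sox5 (-1.51) were lower too, all with adjusted p of at most 0.002.

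Other crest genes were higher in YUMM1.7. Pax3, an upstream activator of Mitf, was at 103 and 105 against 46.6 and 41 CPM (1.22, SE 0.12, adjusted p = 8.9e-04). Tfap2b, a crest factor of the AP-2 family, was at 284 and 272 against 153 and 134 CPM (0.93, SE 0.12, adjusted p = 0.0021). Dlx2 (2.96) and Id3 (2.00) were also higher, and the water channel Aqp1 was at 1248 and 1159.8 against 54 and 187 CPM (3.30, SE 0.54, adjusted p = 0.0058). The Aqp1 change was 4.42 with the exchanged library. Tfap2a was at 34.4 and 41.9 against 20.4 and 28.5 CPM (0.62, adjusted p = 0.067), and it was called with the exchanged library (adjusted p = 1.3e-04). Sox2 lay at 92.6 and 93.3 against 86.2 and 99.5 CPM, and the groups overlapped (-0.02, adjusted p = 0.91).

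**Figure D3:**
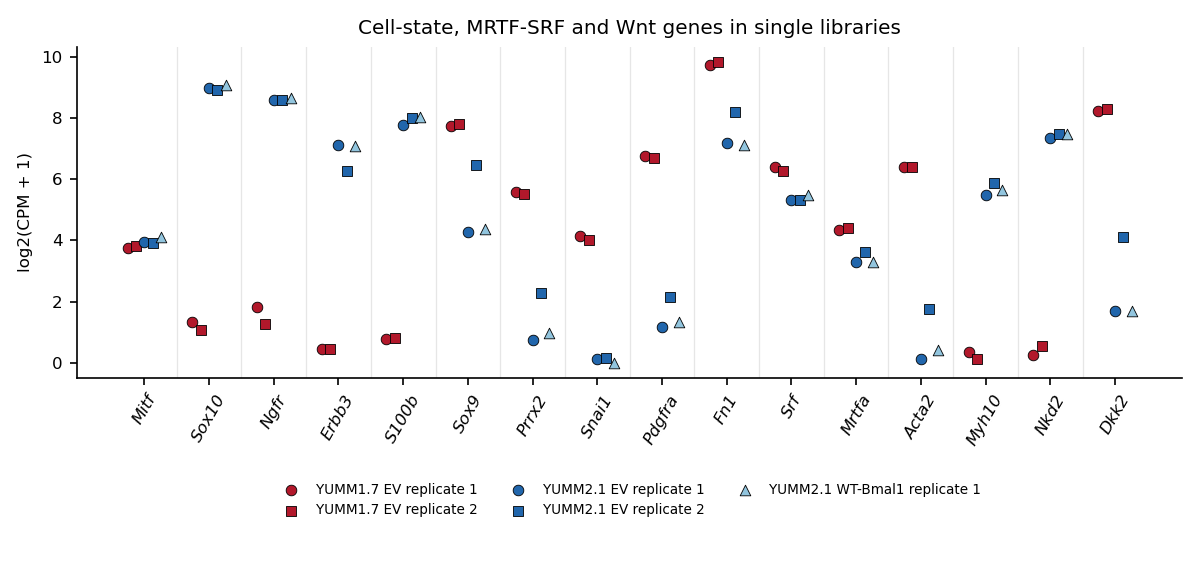
Levels of 16 genes as log2(CPM + 1) in the 2 YUMM1.7 EV libraries (red), the 2 YUMM2.1 EV libraries (blue) and the exchanged library (light blue triangles). Sox10, Ngfr, Erbb3, S100b, Myh10 and Nkd2 are near 0 in YUMM1.7, Mitf lies between 12.6 and 14.4 CPM in both EV groups, and for Sox9, Prrx2, Fn1, Acta2 and Dkk2 the YUMM2.1 EV replicate 2 stands above the other YUMM2.1 points.

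Genes of the undifferentiated, mesenchymal state were higher in YUMM1.7 more often than lower. Of the 40 genes 36 were tested, 17 were higher and 8 lower, and the median log2 fold change was 0.90. With the exchanged library 22 were higher and 10 lower. Among the transcription factors that drive epithelial-mesenchymal transition, Snai1 had 1 count in each YUMM2.1 library and was at 16.5 and 15.2 CPM in YUMM1.7 (ratio 169, counting interval 46.4 to 1399.8). Prrx2 was at 47.5 and 44.7 against 0.664 and 3.88 CPM (4.40, SE 0.56, adjusted p = 0.0022). Twist1 (1.46), Snai2 (1.45), Twist2 (1.13), Zeb1 (0.94) and Prrx1 (0.70) were higher by less, with adjusted p between 0.0018 and 0.042. Zeb2, the family member that melanocytes normally use, was lower, at 104 and 95.9 against 275 and 257 CPM (-1.44, SE 0.11, adjusted p = 3.4e-04).

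Axl, a receptor tyrosine kinase of drug-resistant melanoma, was at 715 and 700.3 CPM in YUMM1.7 and at 382 and 569 CPM in YUMM2.1. The groups did not overlap, but the difference of 0.55 did not pass the test (SE 0.19, adjusted p = 0.071), and it was 0.83 (adjusted p = 1.8e-07) with the exchanged library. Klf4 was at 98 and 102 against 32.6 and 72.6 CPM (0.92, SE 0.34, adjusted p = 0.089), and 1.54 (adjusted p = 1.3e-08) with the exchanged library. Egfr lay at 5.08 and 7.58 against 6.81 and 3.24 CPM, and the groups overlapped (0.29, adjusted p = 0.65). Lmo1 had at most 12 counts in any of the 4 libraries and was not tested.

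The receptors and matrix genes of the list split. Pdgfra, the platelet-derived growth factor receptor of fibroblasts, was at 108 and 102 against 1.25 and 3.45 CPM (5.52, SE 0.35, adjusted p = 1.6e-04), and Pdgfrb was at 35.4 and 39.3 against 0.83 and 2.8 CPM (4.40, SE 0.43). Mgp, an inhibitor of matrix calcification, was at 808 and 759 against 6.64 and 21 CPM (5.83, SE 0.50, adjusted p = 5.0e-04), and fibronectin, Fn1, at 859 and 913 against 144 and 292 CPM (2.00, SE 0.31, adjusted p = 0.0048). Dcn, the proteoglycan decorin, had no count in YUMM2.1 EV and was at least 65.5-fold higher. Wnt5a, a non-canonical Wnt ligand, was higher by 3.99. Against these stood Thbs2, an adhesive matrix glycoprotein, at 5.35 and 4.12 against 175 and 136 CPM (-5.06, SE 0.21, adjusted p = 3.9e-05), Postn (-3.48), Tnc (-2.69), Sparc (-1.26) and Lrrc17 (-1.02). Vim, Cd44 and S100a4 did not pass the test, and their groups overlapped.

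**Figure D4:**
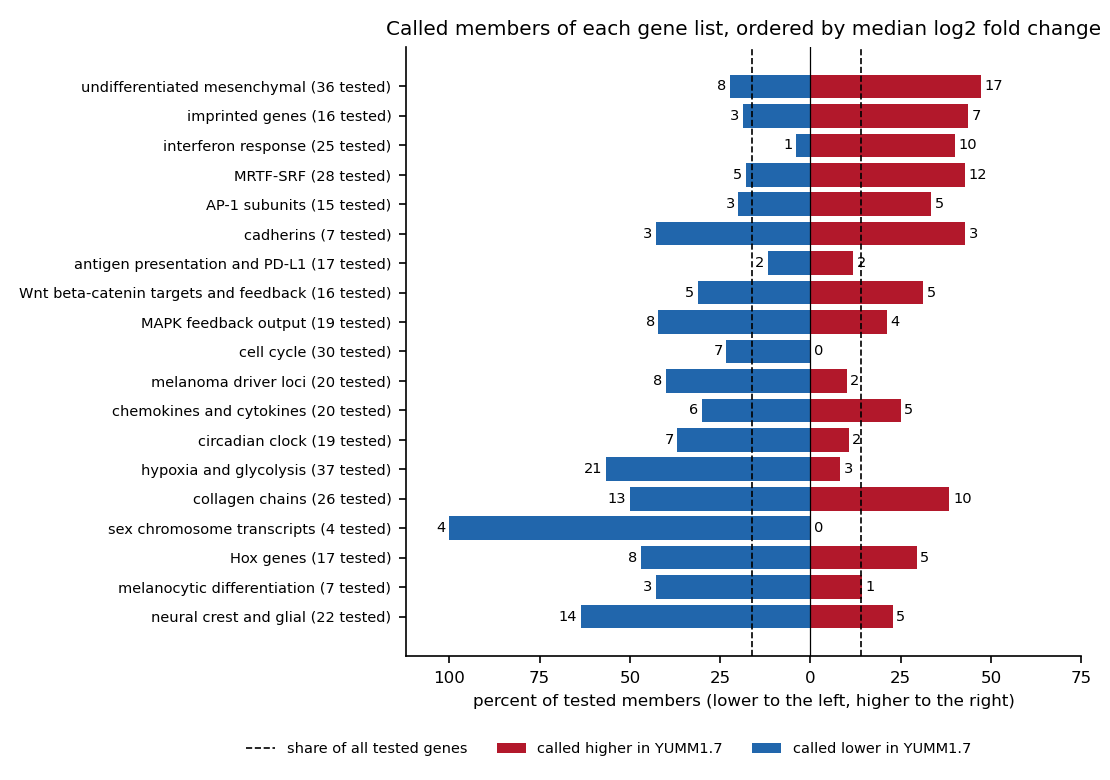
Percent of the tested members of each of 19 gene lists that were higher (red, to the right) or lower (blue, to the left) in YUMM1.7 EV than in YUMM2.1 EV, with the number at each bar and dashed lines at the 14.1% and 16.2% of all tested genes. Among lists of over 20 tested genes, the mesenchymal, MRTF-SRF and interferon lists lie farthest past the line on the right. The neural crest and the hypoxia and glycolysis lists lie farthest past the line on the left among them. Most of the other lists pass the line on the right as well, and the mesenchymal and MRTF-SRF lists also pass the line on the left.

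YUMM2.1 comes from tumours with a stabilised β-catenin allele, and genes of Wnt feedback were read for that reason. Ctnnb1, the gene of β-catenin, was at 415 and 441 against 397 and 386 CPM (0.10, SE 0.10, adjusted p = 0.49). Of the 31 Wnt genes only 16 were expressed enough to test, and 5 were higher and 5 lower, with a median of 0.09. Nkd2, a feedback inhibitor, had 2 and 5 counts in YUMM1.7 and was at 161 and 178 CPM in YUMM2.1 (-9.02, SE 0.26, adjusted p = 1.5e-05). Lgr6, a receptor for R-spondin, was at 0.357 and 0.281 against 78 and 78.6 CPM (-7.91, SE 0.22, adjusted p = 1.5e-05). Lgr5 (-2.67, adjusted p = 0.0011) and Trabd2b (counting ratio 44.2, interval 14.8 to 217) were lower as well.

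Axin2, the most widely used target gene of β-catenin, had 3 counts in YUMM1.7 EV in all and was at 2.16 and 1.29 CPM in YUMM2.1, so its ratio of 13 had a counting interval of 4.13 to 65.9 (adjusted p = 0.03). Nkd1, Notum, Sp5 and Rnf43 were at 6 counts or fewer in every library. Secreted Wnt inhibitors were among the genes that were higher in YUMM1.7. Dkk2 was at 299.6 and 311 against 2.24 and 16.4 CPM (5.07, SE 0.71, adjusted p = 0.0034), and at 7.06 with the exchanged library, and Sfrp1 was higher by 1.49 (adjusted p = 0.0093). Of the Wnt transcription factors, Tcf7l1 (1.25) and Lef1 (1.86, adjusted p = 0.042) were higher, and Tcf7l2 did not pass the test (0.12, adjusted p = 0.49).

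The MRTF-SRF pathway was the one for which the study brought in YUMM1.7. It reported that MRTFA and SRF were highest in YUMM1.7, as protein and as mRNA. The mRNA levels came from its own Quant-seq data, so the Srf and Mrtfa values here are not independent of that report. Srf was at 84.1 and 76.8 CPM in YUMM1.7 and at 38.6 and 38.7 CPM in YUMM2.1, 2.05-fold higher (log2 fold change 1.03, SE 0.12, adjusted p = 0.0016). Mrtfa was at 19.3 and 20 against 8.88 and 11.4 CPM (0.94, SE 0.20, adjusted p = 0.016). Mrtfb was at 39.1 and 37.5 against 37.4 and 45.8 CPM, with overlapping groups (-0.14, adjusted p = 0.53). Of the 33 genes of the list 28 were tested, 12 were higher and 5 lower, and the median was 0.35. With the exchanged library 18 were higher and 5 lower.

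Among targets of SRF, Acta2, smooth muscle actin, was at 83.4 and 83 CPM in YUMM1.7 and at 0.083 and 2.37 CPM in YUMM2.1 (6.19, SE 0.64, adjusted p = 0.001), and its change was 8.53 with the exchanged library. Tpm2, a tropomyosin, was at 161 and 149.6 against 0.332 and 2.48 CPM (6.87, SE 0.49, adjusted p = 2.5e-04), and its change was 9.73 with the exchanged library. Fhl2, a LIM-domain cofactor, had 1 and 2 counts in YUMM2.1 and was at 22.9 and 28 CPM in YUMM1.7 (ratio 180.4, interval 61.4 to 877). Tgfb1i1 (3.42), the α-actinin gene Actn1 (1.29), Cnn2 (1.07), Filip1l (1.02), Zyx (0.69) and Tpm4 (0.50) were also higher. Tagln and Cnn1, which mark differentiated smooth muscle, were at 0 counts in all 4 libraries, and the muscle markers Myog, Ckm, Myh11 and Actc1 were at no more than 3 counts.

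Other genes of the list, 5 in all, were lower in YUMM1.7. Vinculin, Vcl, was at 82.7 and 84.6 against 128 and 118 CPM (-0.58, SE 0.11, adjusted p = 0.011), and Csrp1 (-0.92) and Lima1 (-0.45) were lower as well. Myl9, a myosin regulatory light chain, was at 0.178 and 0.468 against 4.32 and 8.31 CPM (-4.26, SE 0.61, adjusted p = 0.0035). The cytoplasmic actins Actb and Actg1 did not pass the test, with log2 fold changes of 0.07 and 0.00.

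The non-muscle myosin II heavy chains, the motors of actin contraction, split by isoform. Myh9 was at 653 and 642 CPM in YUMM1.7 and at 583 and 746 CPM in YUMM2.1, so the groups overlapped (-0.06, SE 0.14, adjusted p = 0.78). Myh10 had 3 and 1 counts in YUMM1.7 and was at 44.3 and 57.6 CPM in YUMM2.1 (-8.06, SE 0.36, adjusted p = 5.0e-05). Over all 6 YUMM1.7 libraries Myh10 did not pass 0.267 CPM, and over the 30 YUMM2.1 and aC3 libraries it did not go under 39.2 CPM. Myh14, given above, had 0 counts in YUMM1.7 EV and 162 and 131 counts in YUMM2.1 EV. Myh9 was therefore the heavy chain of the 3 with more than 3 counts in a YUMM1.7 EV library.

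SRF binds the CArG box, and promoters of the list were searched for it by name on both strands, in the 250 bases before each RefSeq start site (GRCm38.p6). Of 27 members with a promoter entry 9 held a match in at least 1 promoter, beside 1.47% of all 32851 promoters. Of the 8 that were tested, 4 were higher in YUMM1.7 (Srf, Cnn2, Filip1l and Fhl2), 3 were lower (Myl9, Vcl and Lima1) and 1, Actg1, was not called. A match thus went with changes in both directions. The promoters shown are those of a gene of each kind, Srf and Fhl2 among the higher genes and Myl9 and Lima1 among the lower ones, 5′ to 3′ along the gene with the CArG box in capitals. They are Srf on the minus strand of chr17:46556163-46556412, Fhl2 on the minus strand of chr1:43196762-43197011, Myl9 on the plus strand of chr2:156775214-156775463 and Lima1 on the minus strand of chr15:99820150-99820399.
Srf: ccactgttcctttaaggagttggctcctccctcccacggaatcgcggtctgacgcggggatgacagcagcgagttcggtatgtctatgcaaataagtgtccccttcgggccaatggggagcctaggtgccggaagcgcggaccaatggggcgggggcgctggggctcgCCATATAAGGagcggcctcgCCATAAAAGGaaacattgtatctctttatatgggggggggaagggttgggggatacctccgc
Fhl2: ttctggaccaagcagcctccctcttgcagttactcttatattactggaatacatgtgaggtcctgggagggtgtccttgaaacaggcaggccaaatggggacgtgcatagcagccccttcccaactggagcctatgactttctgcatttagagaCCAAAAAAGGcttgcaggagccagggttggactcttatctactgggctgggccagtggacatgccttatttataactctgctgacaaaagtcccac
Myl9: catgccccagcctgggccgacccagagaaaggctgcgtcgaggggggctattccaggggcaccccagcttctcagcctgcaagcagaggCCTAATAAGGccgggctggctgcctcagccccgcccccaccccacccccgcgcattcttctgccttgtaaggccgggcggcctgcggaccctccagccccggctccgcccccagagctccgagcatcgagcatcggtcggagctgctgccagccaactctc
Lima1: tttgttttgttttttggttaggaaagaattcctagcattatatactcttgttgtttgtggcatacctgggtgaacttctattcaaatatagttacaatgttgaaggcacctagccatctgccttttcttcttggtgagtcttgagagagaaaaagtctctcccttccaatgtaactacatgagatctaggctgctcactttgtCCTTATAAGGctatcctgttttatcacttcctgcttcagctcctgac
The first base of the match lies 82 and 62 bases before the start site in Srf, 96 bases before it in this promoter of Fhl2, 161 in Myl9 and 47 in Lima1. The letters of a match do not show that SRF was bound.

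AP-1 and MAPK genes were read next, since BRAF V600E signals through MEK and ERK. Among 15 tested AP-1 genes 5 were higher and 3 lower, with a median of 0.32. Fosl1, which encodes Fra-1 and is induced by ERK, was at 176 and 164 against 37.8 and 42.4 CPM (2.06, SE 0.12, adjusted p = 1.2e-04). Fosl2 (1.37), Jun (0.67), Junb (0.80) and Mafk (0.97) were higher. Fos (-2.74), Atf3 (-2.43) and Maf (-0.95) were lower.

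Of 19 tested genes of MAPK output and feedback, which include Fosl1, 4 were higher and 8 lower, with a median of -0.19. Dusp6, the ERK phosphatase, was at 155 and 154 against 455 and 314 CPM (-1.34, SE 0.19, adjusted p = 0.0032). Dusp4 (-2.53), Spry1 (-3.34), Spry2 (-0.60), Ier3 (-1.91), Phlda1 (-0.84), the ETS factor Etv5 (-1.13) and Ccnd1 (-1.15) were lower too. Dusp5 (1.07), Egr1 (0.80), Fosl1 and Epha4 were higher. Spry4 was at 34 and 25.2 against 22.3 and 12.4 CPM and did not pass the test (0.73, adjusted p = 0.12).

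Of 20 tested genes of melanoma driver and cell cycle loci, 2 were higher (Mtap and Akt1) and 8 lower, with a median of -0.28, and with the exchanged library 4 were higher and 13 lower. Cdkn1a, the p53-induced inhibitor p21, was at 207 and 214 CPM in YUMM1.7 and at 728 and 899 CPM in YUMM2.1 (-1.97, SE 0.13, adjusted p = 2.1e-04). Mdm2, also a p53 target, was at 90.2 and 87.9 against 177 and 202 CPM (-1.11, SE 0.12, adjusted p = 0.0011), while Trp53 itself lay at 30.8 and 29.1 against 31.6 and 30.1 CPM (-0.06, adjusted p = 0.77). Cdk6 (-1.49) and Nf1 (-0.87) were lower. Among the 30 cell cycle genes 0 were higher and 7 lower, with a median of -0.25. This is 23.3% called, beside 30.3% of all tested genes. Rrm2, a subunit of ribonucleotide reductase, was at 48.6 and 48.6 against 98 and 93.2 CPM (adjusted p = 0.0013), and Mki67 was lower by less, at -0.44. With the exchanged library 4 were higher and 15 lower, beside 26.2% of all tested genes in each direction.

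Collagen chains were called in both directions, 10 higher and 13 lower of 26 tested, with a median of -0.62. The chains of collagen I parted. Col1a2 was at 2109 and 2143 CPM in YUMM1.7 and at 1.49 and 4.1 CPM in YUMM2.1 (9.60, SE 0.39, adjusted p = 3.3e-05), whereas Col1a1 was at 2.58 and 2.72 against 6.06 and 16.5 CPM (-2.09, SE 0.51, adjusted p = 0.025). The Col1a1 change was -1.34 with the exchanged library. The α chains of collagen VI were higher together, Col6a1 by 0.79, Col6a2 by 1.93 and Col6a3 by 5.53, the last at 347 and 345 against 5.31 and 9.71 CPM (SE 0.27, adjusted p = 6.7e-05).

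Col3a1 (0.95), Col18a1 (1.05) and Col4a5 (4.85) were also higher. Lower chains were Col11a1, at 13.5 and 10.8 against 157 and 181 CPM (-3.82, SE 0.16, adjusted p = 4.3e-05), Col27a1 (-4.77), Col15a1 (-3.85) and Col5a2 (-2.12). Col4a4 had 0 counts in YUMM1.7 and was at 9.47 and 8.09 CPM in YUMM2.1, at least 64.7-fold lower. Among 7 tested cadherins 3 were higher and 3 lower. Cdh26 was at 49.2 and 53.5 against 0.083 and 0.647 CPM (7.20, SE 0.43), Cdh13 was higher by 2.60 and Cdh5 by 3.13, and Cdh19, Cdh6 and Cdh10 were lower. N-cadherin, Cdh2, was at 123 and 121 against 99.5 and 96.4 CPM and did not pass the test (0.29, adjusted p = 0.08).

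The leukocyte, epithelial and endothelial markers that were read were low in both lines. No set of fibroblast or pericyte markers was read, so the check does not cover those cells. Of 6 leukocyte genes 1 was tested and 0 were called, and their summed level was 1.96 and 1.5 CPM in YUMM1.7 and 1.91 and 2.8 CPM in YUMM2.1, with Ptprc, Cd3e and Adgre1 at no more than 3 counts. Of 6 keratinocyte and epithelial genes 1 was tested and not called, and the sum was 1.29 to 5.81 CPM. Of 5 endothelial genes 2 were tested and 1 was called, Cdh5, at 7.75 and 8.05 against 0.166 and 1.73 CPM, while Pecam1 lay at 4.37 and 6.65 against 9.88 and 6.8 CPM and Kdr, Tek and Emcn did not pass 3 counts.

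Interferon-stimulated genes were higher in YUMM1.7 more often than lower, 10 against 1 of 25 tested, with a median of 0.48. Isg15, a ubiquitin-like protein, was at 31.3 and 32.2 against 15.4 and 11.1 CPM (1.23, SE 0.20, adjusted p = 0.0063). Rtp4 (3.34), Oasl2 (4.21), the RNA sensors Dhx58 (2.43) and Ifih1 (1.23), Gbp2 (2.33), Ifit1 (1.41), Irf9 (0.75) and Ifi27 (0.69) were higher, and Ifi44, with 2 counts in YUMM2.1 EV, had a ratio of 69.1 (interval 18.8 to 576). Gbp7 was the lower gene (-0.97). With the exchanged library 14 were higher and 3 lower.

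Of 17 tested genes of antigen presentation 2 were higher and 2 lower, or 23.5% called beside 30.3% of all genes. Erap1, the peptidase that trims peptides for MHC class I, was higher (1.41, SE 0.22, adjusted p = 0.005), as was Tapbp (0.76). Tapbpl, a peptide editor, was at 161 and 174 against 369 and 460.4 CPM (-1.33, SE 0.14, adjusted p = 0.0011), and H2-T23 was lower by 0.37 on the log2 scale. B2m was at 593 and 595 against 458 and 568 CPM (0.19, adjusted p = 0.33). Tap1 (-0.45, adjusted p = 0.63) and Cd274, which encodes PD-L1 (-0.14, adjusted p = 0.88), lay under 4 CPM in every library. MHC class I genes share near-identical sequence, so the values of single H2 genes are uncertain. With the exchanged library 4 were higher and 5 lower.

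Secreted signals were called both ways, with 5 higher and 6 lower of 20 tested. Cxcl12, the ligand of CXCR4, had 2 counts in YUMM2.1 EV and was at 82.3 and 78 CPM in YUMM1.7 (ratio 854, interval 236 to 7061). Igfbp6, which binds insulin-like growth factors, was at least 132-fold higher. Cx3cl1, fractalkine, was at 78.4 and 81.9 against 3.24 and 6.69 CPM (4.02, SE 0.30, adjusted p = 2.8e-04), and Csf1, the macrophage growth factor, at 66.7 and 75.9 against 27.4 and 26.8 CPM (1.37, SE 0.13, adjusted p = 8.0e-04). Lower genes were Il33, an alarmin, at 12.9 and 16.1 against 192 and 247 CPM (-3.94, SE 0.19, adjusted p = 6.7e-05), Tgfb2 (-2.86), Tgfb1 and Ccl9 (ratio 109.9, interval 37.3 to 536). Ccl2 (-0.41, adjusted p = 0.16) and Vegfa (-0.12, adjusted p = 0.61) did not pass the test, and Csf2, Il6 and Cxcl9 had 0 counts in all 4 libraries.

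Clock genes were lower more often than higher, 7 against 2 of 19 tested, with a median of -0.38. Arntl, the gene of Bmal1, was at 8.47 and 8.61 against 15.9 and 13.9 CPM (-0.83, SE 0.20, adjusted p = 0.023), and its paralogue Arntl2 was at 14.4 and 12.7 against 3.32 and 2.8 CPM (2.11, SE 0.25, adjusted p = 0.0016). The repressors Nr1d1 (-1.25) and Nr1d2 (-0.46) and the output gene Tef (-0.52) were lower, with adjusted p of 0.0096, 0.027 and 0.019. Rorb was at 34.6 and 32.2 against 163 and 151 CPM (-2.26, SE 0.12, adjusted p = 8.6e-05), and Rora (-1.91) and Bhlhe40 (-2.13) were lower by a like amount. Clock, Dbp and Per2 did not pass the test. The labels give no circadian time for the harvests, so phase and level cannot be told apart. The clock promoters were searched for the E-box CACGTG on both strands, and 5 of 18 held it in these windows, beside 6.02% of all promoters. For the Wnt list the T-cell factor motif ATCAAAG was held by 2 of 18, Sp5 and Tnfrsf19, neither of which was tested, beside 3.21% of all. Both counts set genes beside single promoters, as for the CArG box.

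Genes of hypoxia and glycolysis were mostly lower in YUMM1.7 where they were called, with 3 higher and 21 lower of 37 tested and a median of -0.55. Hk2, a hexokinase, was at 25.5 and 30.1 against 98.6 and 109 CPM (-1.93, SE 0.14, adjusted p = 2.5e-04), and Hk1 was lower by a like amount (-1.59). Along glycolysis Gpi1 (-1.23), Pfkl (-0.68), Aldoa (-0.38), Tpi1 (-0.86), Gapdh (-0.66), Pgk1 (-0.90) and Ldha (-0.60) were lower, and Eno1 (0.26), Pgam1 (-0.43) and Pkm (-0.14) did not pass the test. Hif1a was at 81.8 and 86.5 against 123 and 109 CPM (-0.49, SE 0.12, adjusted p = 0.023), and the HIF targets Bnip3 (-0.56), Adm (-4.45), Plod2 (-1.20) and Higd1a (-1.13) were lower. Egln3, a HIF prolyl hydroxylase, went the other way, at 50.4 and 45.9 against 3.24 and 9.92 CPM (2.88, SE 0.44, adjusted p = 0.0046), as did the glucose transporter Slc2a1 (0.67, adjusted p = 0.043) and Stc2 (2.31).

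Of 22 genes that the study itself names, 21 were tested, 6 were higher and 7 lower in YUMM1.7, and with the exchanged library 9 and 9. They were chosen from these samples among others, so their direction is not independent evidence. Actn4, an α-actinin, was at a mean of 429 ± 3.77 CPM (SD, n = 2) in YUMM1.7 and 494 ± 72 CPM (SD, n = 2) in YUMM2.1 and did not pass the test (-0.23, adjusted p = 0.25).

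The line contrast was then taken in libraries with the other constructs. With WT-Bmal1 6399 of 14079 genes were called (45.5%, with 22.1% higher and 23.4% lower), and with dHLH-Bmal1 3482 of 13958 (24.9%, with 11.3% higher and 13.6% lower). Of 13352 genes tested with all 3 constructs, 1939 were called in the same direction in each, 923 higher and 1016 lower. Sox10 (-9.42 with WT-Bmal1 and -7.28 with dHLH-Bmal1), Ngfr (-8.33 and -7.21), Myh10 (-8.52 and -10.67), Nkd2 (-8.12 and -8.69) and Srf (0.61 and 1.16) were called in the same direction each time, as was Mtap.

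Of the mesenchymal genes, with WT-Bmal1 19 were higher and 10 lower of 36, and with dHLH-Bmal1 12 were higher and 16 lower of 37. The difference between the dHLH-Bmal1 and EV contrasts was tested as an interaction term, and 1496 of 15120 genes passed (9.89%, with 4.42% higher and 5.48% lower). With the labels exchanged 2938 passed (19.4%, with 8.36% higher and 11.1% lower). Prrx2 fell from 4.40 to 1.42 on the log2 scale (interaction -3.00, adjusted p = 0.019), Fn1 from 2.00 to 0.37 (-1.65, adjusted p = 0.039) and Col1a2 from 9.60 to 4.47 (-5.15, adjusted p = 0.002). For Snai2 the contrast was 1.45 with EV and -1.21 with dHLH-Bmal1, and for Klf4 0.92 and -2.22 (interaction -2.68 and -3.15, adjusted p = 0.0016 and 0.0023). Sox9 was at 2.03 and -0.11, but its interaction did not pass the test (-2.16, adjusted p = 0.16). For Srf the interaction was 0.11 (adjusted p = 0.69).

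Of the MAPK output and feedback genes 4 were higher and 8 lower with EV, and 8 were higher and 3 lower with dHLH-Bmal1. Dusp6 went from -1.34 to 0.68 (interaction 2.01, adjusted p = 0.012) and Etv5 from -1.13 to 0.59 (1.71, adjusted p = 4.5e-04). Tgfb2 went from -2.86 to -0.55 (2.30, adjusted p = 6.3e-04), and Csf1 from 1.37 to -0.92 (-2.31, adjusted p = 6.4e-04). In the hypoxia and glycolysis list 32 of 39 genes were lower in YUMM1.7 with dHLH-Bmal1, and Bnip3 went from -0.56 to -2.74 (-2.20, adjusted p = 2.1e-04). The interaction term does not say in which line a gene moved.

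**Figure D5:**
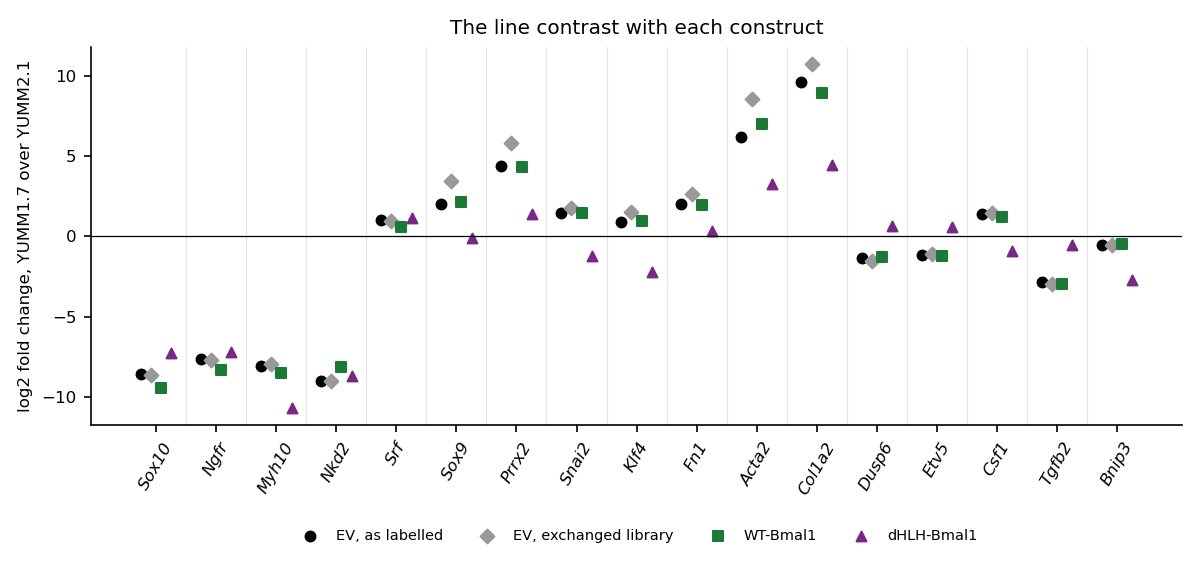
Fitted log2 fold change of YUMM1.7 over YUMM2.1 for 17 genes, with EV as labelled (black circles), EV with the exchanged library (grey diamonds), WT-Bmal1 (green squares) and dHLH-Bmal1 (purple triangles), each from 2 libraries per line. Sox10, Ngfr, Myh10, Nkd2 and Srf keep their side with every construct, while for Snai2, Klf4, Dusp6, Etv5 and Csf1 the purple triangle lies across 0 from the black circle.

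Genes that were near 0 in all YUMM1.7 libraries and expressed in all YUMM2.1 libraries numbered 29 by the rule of at most 3 against at least 50 counts in 6 libraries each, and 28 of them were protein-coding. They lay on 15 chromosomes, and in 22 of them every YUMM2.1 and aC3 library of the 30 held at least 10 counts. Beside Myh10, those with the highest counts were Pde8a, a phosphodiesterase of cyclic AMP (ratio 696, counting interval 192 to 5754), Afap1l2 (440.5, 150.4 to 2139), Greb1 (1155, 207 to 45657) and Rnf144a, a ubiquitin ligase (583, 161 to 4821). Of the 34 genes near 0 in YUMM2.1, 31 stayed at or under 10 counts in all 30 libraries of YUMM2.1 and aC3, and 42 was the highest count of any. In both sets the 30 include the 6 YUMM2.1 libraries that defined the set, and the rest derive from the same line. Ssbp3 and Plpp3, on chromosome 4 as Mtap is, were at 157 and 165 and at 187 and 170.3 CPM in YUMM1.7. With 2 libraries against 2 an exact permutation test cannot give a p below 0.333, and single genes rest on the fit across all genes.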

How the data were processed

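RNA of 2 YUMM1.7 EV and 2 YUMM2.1 EV libraries was read by 3′ tag sequencing (QuantSeq) with single reads of 75 bases. The authors aligned reads to mm10 with bowtie2 and deposited estimated counts per Ensembl gene from RSEM (version 1.2.3 in the submitters' processing notes), with no normalization. Which Ensembl release was used, and whether counting used strand, is not given in the sources used here. Of 51789 gene identifiers, 99.6% matched the annotation used for names and positions.

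Estimated counts were rounded to whole numbers, filtered with filterByExpr and scaled by TMM. They were tested with the quasi-likelihood test of edgeR 4.0.16 (R 4.3.3), two-sided, on the 4 libraries alone, with Benjamini-Hochberg adjustment over all tested genes and no covariate. The study's own tool, DESeq2 (1.42.0), was an alternative. Levels in CPM were scaled over all 40 libraries. Beside a gene at 0 counts in a line, the fold was computed against 3 counts over its 2 libraries, and with 1 to 3 counts as a ratio with an exact 95% interval, both of which cover counting error only. The contrasts with WT-Bmal1 and dHLH-Bmal1 were fitted in the same way, and the interaction came from 1 fit of 12 libraries. Groups came from the labels.

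Genes named by rule are those the study names, core genes of each list, the called members with the largest change in each list, the 10 protein-coding genes with the largest change in each direction (mean of at least 50 counts), and the leading genes of the near-0 sets. The other list members named, and the neighbours of the chromosome 4 interval, were chosen after their values were seen. The comparison, its members and the gene lists were chosen with earlier results of these data known. No set test was run. On simulated counts for this comparison over 14086 genes, 56 of 100 genes changed by 1 on the log2 scale were called, 89 of 100 changed by 2, and 3 of 148 calls were false. The simulation gave both lines the same spread and changed only these genes. In the real EV libraries the replicate SD was 0.18 in YUMM1.7 and 0.44 in YUMM2.1, and 4267 genes were called. These rates therefore may not carry over to the comparison itself. Replicate numbers were checked for pairing across the 2 lines and did not pair the libraries there. Some items of the gene lists and genotypes are not reported here.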

Additional observations from a re-analysis of the deposited data

Results flagged for a closer look

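Among the named genes, 66 had a difference between the lines that itself differed between the dHLH-Bmal1 and the EV libraries. This was read from the interaction test (edgeR, adjusted p under 0.05). They were 30 of the 141 genes named by the rule and 36 of the 127 chosen after their values were seen. Over all tested genes 9.89% passed this test, and 19.4% with the labels exchanged. The EV libraries whose values led to naming many of these genes also enter the interaction, so these counts are not independent of that choice. The values below are the log2 fold change of YUMM1.7 over YUMM2.1 with dHLH-Bmal1 minus that with EV. They are for the libraries as labelled.

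Of the mesenchymal and matrix genes, the contrast was lower with dHLH-Bmal1 for Col1a2 (-5.15), Col6a3 (-3.19), Pdgfrb (-2.35), Tnc (-1.85), Col6a2 (-1.08), S100a4 (-0.91), Col1a1 (-3.53), Klf4 (-3.15), Prrx2 (-3.00), Snai2 (-2.68), Fn1 (-1.65), Twist1 (-0.92) and Axl (-0.90). It was lower too for the SRF list members Fhl2 (-3.55), Tgfb1i1 (-3.06), Acta2 (-2.95), Cnn2 (-0.87), Actn1 (-0.69) and Tpm4 (-0.52), for the cadherins Cdh13 (-2.98) and Cdh26 (-2.62), and for Epha4 (-4.69). It was higher for Col15a1 (6.17), Col11a1 (2.89), Cdh6 (2.23), Postn (1.41) and Lima1 (0.79), and for the neural crest genes Sox5 (2.07), L1cam (1.84) and Sox2 (0.92). In Col4a4 it was higher by 6.45, where YUMM1.7 EV was at 0 counts and the fitted value depends on the prior count. Secreted factors with a lower contrast were Igfbp6 (-4.76, with YUMM2.1 EV at 0 counts), Cxcl12 (-4.41), Csf1 (-2.31) and Vegfa (-1.12), and those with a higher contrast were Tgfb1 (2.40), Tgfb2 (2.30) and Il33 (1.06).

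Of the hypoxia genes the contrast was lower for Car9 (-5.09), Egln3 (-2.50), Stc2 (-2.61), Bnip3 (-2.20), Plod2 (-1.38), Slc2a1 (-1.27), Higd1a (-1.12), Pgam1 (-0.89), Pkm (-0.75), Pgk1 (-0.68) and Ldha (-0.44). In the MAPK output and feedback genes it was higher for Dusp6 (2.01), Spry4 (1.80), Etv5 (1.71), Phlda1 (1.32), Ccnd1 (0.79) and Spry2 (0.68), and it was lower for the AP-1 genes Junb (-1.86) and Fosl2 (-1.46). The remaining genes were Rtp4 (-2.25), Rorb (1.51), Nf1 (0.77), Cdk6 (0.49), Gbp7 (1.32), Gpnmb (1.31), Tapbpl (1.05), Rrm2 (0.83) and Ddx3y (-0.74).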

How the results depend on the processing

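Of 4267 genes called in the EV comparison, the number became 7421 with the exchanged library and 6626 in a fit of 12 libraries with both labels exchanged, and it was 2602 with a minimum log2 fold change of 1. Leaving out 1 library at a time gave 1723 to 7433 calls. It was 1723 without YUMM1.7 replicate 1, 1937 without YUMM1.7 replicate 2, 7209 without YUMM2.1 EV replicate 1 and 7433 without YUMM2.1 EV replicate 2, where the lone library was assumed to vary like the other group. DESeq2 (3623), DESeq2 size factors (4272), no filter (5472), a mean of at least 10 counts (4095) and 1 fit of 12 libraries (5486) stayed within 1.5 times. Leaving out 1 library gave 4069 to 6505 calls beside 6399 with WT-Bmal1, which became 7409 with YUMM2.1 EV replicate 2 in place of YUMM2.1 WT-Bmal1 replicate 1, and 1747 to 6527 beside 3482 with dHLH-Bmal1. The 1496 interaction calls became 2938 with the labels exchanged. The 224 calls over all lists were 127 to 296 with 1 library left out. Genes near 0 in YUMM1.7 (29) were 2 with 0 against at least 50 counts, 73 with 3 against at least 20 and 114 over the 4 EV libraries alone, and those near 0 in YUMM2.1 (34) were 6, 56 and 87. The cause of these changes was not tested.

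With the replicate block 3443 genes were called in the EV comparison, 5654 with WT-Bmal1, 3679 with dHLH-Bmal1 and 1703 for the interaction, and 201 over the lists. Replicate differences of the 2 lines correlated at -0.06 with EV, -0.07 with WT-Bmal1 and 0.16 with dHLH-Bmal1. These values cover pairing across the lines only. Within YUMM2.1, EV and WT-Bmal1 libraries of the same number correlated at 0.992 and 0.990, and those of different numbers at 0.976 and 0.977. Why libraries of the same number lay closer was not tested.

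Of 230 tested genes that were named, 147 kept their direction and their side of the threshold under every alternative that was run. Myh9, not called, had a log2 fold change of -0.06 with the 4 libraries and -0.23 to 0.13 with 1 library left out, the sign changing without YUMM2.1 EV replicate 2. The sign of Actg1 (-0.14 to 0.16) changed without the same library, and that of Vim (-0.41 to 0.28) and Cd44 (-0.26 to 0.28) without YUMM2.1 EV replicate 1. With 2 libraries per line, a gene that was not called is not shown to be equal. Genes at a few counts, pigment genes and Cdkn2a among them, carry wide counting error.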

Other observations

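Hox genes, which keep a cell's position along the body axis, were called both ways, with 5 higher and 8 lower in YUMM1.7 of 17 tested. Hoxc6 had 1 count in each YUMM2.1 EV library and was at 29.6 and 30 CPM in YUMM1.7 (ratio 317, counting interval 87.5 to 2625), and Hoxc4 was higher by 5.29 on the log2 scale. Hoxd13, a gene of distal limbs, had 0 counts in YUMM1.7 EV and was at least 18.5-fold lower. Of 16 tested imprinted genes, which are expressed from 1 parental allele, 7 were higher and 3 lower. Dlk1, a Notch ligand homologue, was at 135 and 125 against 13.5 and 6.26 CPM (3.67 on the log2 scale), Mest was lower by 6.86 and Snrpn by 6.52 on the log2 scale.

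Of 5 sex chromosome transcripts 4 were tested, and 4 were lower in YUMM1.7. Ddx3y (-0.52), Kdm5d (-0.74) and Uty (-0.66) were read in both lines, while Eif2s3y had 1 count in YUMM1.7 EV and was at 12.5 and 12.4 CPM in YUMM2.1 (ratio 273, interval 48.6 to 10836).

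Median log2 fold changes by chromosome ran from -0.29 on chromosomes 6 and 10 to 0.32 on chromosome 4 and 0.31 on chromosome 8. On chromosome 4, 206 genes were higher and 78 lower of 792 tested, and on chromosome 10, 61 and 218 of 727. Over all tested genes 14.1% were higher and 16.2% lower. Over the 4 pairs of a YUMM1.7 and a YUMM2.1 EV library the median of chromosome 4 lay between 0.29 and 0.31, and that of chromosome 10 between -0.26 and -0.25.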
